A study of Mus musculus with 18 samples.

Results

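The complement genes described here are 9 genes chosen by symbol: C1qa, C1qb, C1qc, C1ra, C2, C3, C4b, Cfb and Serping1. They are 9 of 16089 genes tested, out of 29433 with a count, and all 9 had passed the filter on low counts. Poly(A) RNA was sequenced from the tibialis anterior (TA) muscle of mice with 5 models of cancer cachexia, the loss of muscle and fat that accompanies tumours, and from control mice. There were 18 libraries, 2 biological replicates in each of 9 groups, and the muscles were taken at endpoint. LLC mice were C57BL/6 with LLC carcinoma cells injected into muscle, and their controls were C57BL/6 given PBS. KPCML1 mice were C57BL/6 given 1000 KPCML1 tumour cells orthotopically, KPC mice were C57BL/6 given 50000 KPC tumour cells orthotopically, and both were set against the same 2 C57BL/6 controls given Matrigel alone. C26 mice were CD2F1 with C26 carcinoma cells under the skin, and their controls were CD2F1 given PBS. KPP mice were C57BL/6 of a genetic tumour model induced with tamoxifen, and their controls were mice of that model without a tumour. The alleles of the KPP model, the promoter that drives its recombinase, whether its controls had tamoxifen, and whether the TA muscle lay in the limb injected with LLC cells are not stated in the labels.

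Complement is a cascade of plasma proteins that tags targets for uptake and lysis. In the classical pathway, C1q recognises a target, the proteases C1r and C1s bound to it cleave C4 and C2, and the C4b and C2 fragments form a convertase that cleaves C3. In the alternative pathway, factor B (Cfb) takes the place of C2. The C1 inhibitor (Serping1) blocks C1r and C1s of the classical pathway. The liver makes most plasma complement, C1q comes mainly from macrophages and related myeloid cells, and fibroblasts and other stromal cells also express several components.

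The 3 genes of C1q lie next to one another on the minus strand of chromosome 4 in mm10, C1qb at 136880129-136886187, C1qc at 136889804-136893065 and C1qa at 136895917-136898803. On chromosome 17, C4b lies at 34728380-34743882, Cfb at 34856374-34862518, C2 at 34862604-34898265 and C3 at 57203970-57228136, all on the minus strand. C1ra lies on the plus strand of chromosome 6 at 124512405-124523443, and Serping1 on the minus strand of chromosome 2 at 84765387-84775444.

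Of the 9 genes, 4 matched an entry in the RefSeq promoter table of GRCm38.p6, the assembly that mm10 names. The 250 bases before each RefSeq start are shown for the neighbours C1qb and C1qc, whose levels varied together, and for C1ra and C3, whose levels varied with those of Serping1. They are written 5′ to 3′ on the strand of the gene, C1qb at chr4:136886201-136886450, C1qc at chr4:136892915-136893164, C1ra at chr6:124512371-124512620 and C3 at chr17:57228137-57228386. Capitals mark matches to a searched motif on either strand.
C1qb: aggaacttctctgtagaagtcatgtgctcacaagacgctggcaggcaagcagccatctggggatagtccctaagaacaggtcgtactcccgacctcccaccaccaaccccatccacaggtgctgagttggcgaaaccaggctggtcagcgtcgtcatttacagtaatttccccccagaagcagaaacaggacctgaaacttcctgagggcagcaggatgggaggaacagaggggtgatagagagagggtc
C1qc: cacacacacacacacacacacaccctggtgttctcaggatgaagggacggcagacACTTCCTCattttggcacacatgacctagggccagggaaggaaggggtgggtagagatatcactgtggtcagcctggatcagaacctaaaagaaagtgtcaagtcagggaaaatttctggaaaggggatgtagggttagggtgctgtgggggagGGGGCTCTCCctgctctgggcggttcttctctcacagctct
C1ra: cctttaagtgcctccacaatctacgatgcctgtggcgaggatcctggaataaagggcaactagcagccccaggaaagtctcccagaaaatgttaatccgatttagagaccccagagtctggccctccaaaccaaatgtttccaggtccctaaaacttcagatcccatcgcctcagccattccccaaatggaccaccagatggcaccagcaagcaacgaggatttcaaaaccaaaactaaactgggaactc
C3: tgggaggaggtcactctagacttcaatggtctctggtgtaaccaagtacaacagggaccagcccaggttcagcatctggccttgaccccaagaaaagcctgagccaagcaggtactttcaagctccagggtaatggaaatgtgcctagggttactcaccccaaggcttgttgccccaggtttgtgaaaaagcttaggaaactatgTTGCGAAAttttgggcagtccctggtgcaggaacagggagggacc
The 5 motifs searched were GAS (TTCNNNGAA), C/EBP (TTGCNNAA), ISRE (GAAANNGAAA), PU.1 (GAGGAAGT) and the kappaB consensus. The RefSeq starts of C1qc and C1ra lie inside the gene bounds given above, so that parts of these windows fall within those bounds. With positions counted from the RefSeq start, C1qc held a PU.1 match at -195 to -188 and a kappaB match at -41 to -32, the PU.1 match upstream of the gene bounds and the kappaB match inside them. C3 held 1 C/EBP match at -45 to -38, and no match to the 5 motifs stood in the windows of C1qb and C1ra. The motifs occurred in 2.44% (PU.1), 7.25% (kappaB consensus), 9.56% (C/EBP), 7.02% (GAS) and 2.98% (ISRE) of the same windows of all 32851 promoters, and the matches overlapped no other.

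On the TPM scale, which corrects for transcript length, Serping1 had the highest level, with a median of 24.2 TPM over the 18 libraries. C1qa followed with a median of 10.1 TPM, C1qb with 8.55, C1qc with 6.75, C3 with 5.94, C4b with 4.21, C1ra with 2.96, Cfb with 1.84 and C2 with 1.21 TPM. The ranges over libraries of each pair of neighbours in this order overlapped. The 3 C1q chains, which assemble in equal numbers in the protein, made up 32.7 to 49.1% (C1qa), 25.6 to 42.1% (C1qb) and 22.4 to 30.2% (C1qc) of their summed TPM, which ran from 11.3 to 61.6 TPM. Counts per library were 23 to 1125 for C4b, 225 to 3011 for C3, 372 to 2128 for Serping1 and 11 to 105 for C2, the sparsest of the 9.

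The libraries held 22431479 to 36469586 fragments in genes, and 9 myofibre markers summed to 71000 to 175000 CPM in every library. Mitochondrial genes held 5.94 to 16.9% of the fragments in tumour libraries, against 14.6 to 22.4% in control libraries, and in each model both tumour libraries lay below both controls. C26 tumour replicate 2 stood apart, with 71000 CPM of myofibre markers and 5.94% mitochondrial fragments, where C26 tumour replicate 1 had 136000 CPM and 11.02%. The part of these differences in the results was not tested. CPM are counts scaled to the normalised size of each library, and values below are CPM unless stated. The 2 libraries of a group stood far apart in 3 groups. C3 had 3011 and 909 counts in the C26 tumour replicates 1 and 2, and 1275 and 345 counts in the Matrigel control replicates 1 and 2, and C4b had 490 and 76 counts in the KPP control replicates 1 and 2. The 7 hepatocyte markers found summed to 0.0398 to 4.33 CPM over all libraries, and each of the 7 was at 0 in at least 3 libraries.

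C4b rose in all 4 transplanted models and did not pass the test in KPP. In KPP muscle 4 other members fell, C1ra, C2, Cfb and Serping1, and in KPCML1 muscle C1qa rose too. A call is an adjusted p under 0.05 by edgeR's quasi-likelihood test, adjusted after Benjamini and Hochberg over all genes tested. In LLC muscle 1 of 9 members was called, where 13.6% of all genes were. In KPCML1 muscle 2 of 9 members were called against 8.53% of all genes, in KPC muscle 1 of 9 against 29.1%, in C26 muscle 1 of 9 against 21.3% and in KPP muscle 4 of 9 against 36.7%. By direction, the shares of all genes called higher and lower were 7.39% and 6.24% in LLC, 4.15% and 4.38% in KPCML1, 15.3% and 13.7% in KPC, 11.5% and 9.8% in C26, and 17.4% and 19.3% in KPP. The median log2 fold change of the members was 0.14 in LLC, 0.96 in KPCML1, 0.51 in KPC, 0.68 in C26 and -1.40 in KPP, where the medians of all genes lay between -0.04 and 0.04.

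**Figure D1:**
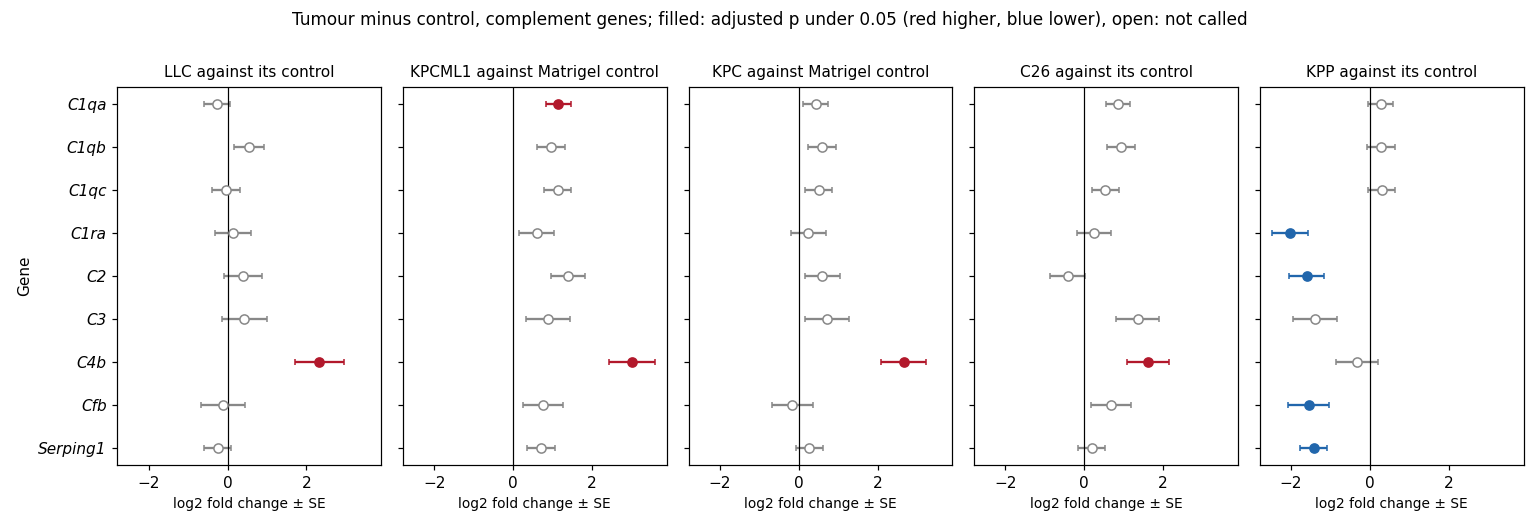
Log2 fold change of each complement gene, tumour minus control, in the 5 models, with standard errors. Filled points passed an adjusted p of 0.05, red where higher and blue where lower in tumour-bearing mice: C4b in the 4 transplanted models, C1qa in KPCML1, and C1ra, C2, Cfb and Serping1 in KPP.

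The recognition subunit C1q was measured through its 3 chains. C1qa had 15.3 and 13.8 CPM in KPCML1 muscles and 7.83 and 9.77 CPM in KPC muscles, against 7.10 and 5.97 CPM in Matrigel controls. C1qa had 16.5 and 9.94 CPM in C26 muscles, against 7.64 and 7.01 CPM in their controls. In these 3 models each tumour library lay above both controls. C1qa had 13.7 and 8.18 CPM in KPP muscles against 11.3 and 6.69 CPM in KPP controls, and 3.90 and 3.79 CPM in LLC muscles against 5.4 and 3.80 CPM in LLC controls, and in both of these models the groups overlapped. Its log2 fold change was 1.15 ± 0.31 (SE) in KPCML1, the sole C1q call in a single model (adjusted p = 0.0382, edgeR's quasi-likelihood test). That call was lost whichever of its 4 libraries was left out (adjusted p = 0.118 to 0.248) and with length-scaled counts (adjusted p = 0.0533).

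C1qb had 15.3 and 10.3 CPM in KPCML1 muscles and 7.04 and 12.7 CPM in KPC muscles, against 7.59 and 5.53 CPM in Matrigel controls. C1qc had 11.8 and 9.61 CPM in KPCML1 muscles and 5.91 and 8.10 CPM in KPC muscles, against 5.93 and 3.89 CPM in Matrigel controls. Both chains were higher in each KPCML1 library than in either control, and both overlapped with the controls in KPC. In C26 muscles C1qb had 12.4 and 5.74 CPM, against 4.68 and 4.84 CPM in controls, so that 1 of 2 tumour libraries lay close to the controls. The log2 fold changes of C1qb were 0.96 ± 0.36 in KPCML1 (adjusted p = 0.111, edgeR) and 0.93 ± 0.36 in C26 (adjusted p = 0.0834, edgeR). For C1qc they were 1.13 ± 0.35 in KPCML1 (adjusted p = 0.0584, edgeR) and 0.53 ± 0.34 in C26 (adjusted p = 0.297, edgeR). In KPP muscles C1qb had 12.9 and 9.81 CPM against 11 and 7.69 CPM in controls, and C1qc had 10.4 and 8.06 CPM against 9.59 and 5.24 CPM, with overlap in both. C1qc also overlapped in C26, with 11.4 and 5.90 CPM in tumour muscles against 6.23 and 5.77 CPM in controls, and in LLC, with 3.86 and 2.97 CPM against 3.36 and 3.64 CPM. In LLC muscles C1qb averaged 4.83 ± 0.367 CPM and 3.32 ± 0.135 CPM in LLC controls (SD, n = 2 each), a log2 fold change of 0.54 ± 0.38 that did not pass (adjusted p = 0.387, edgeR).

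Averaged over the 5 models, all 3 chains rose, by a log2 fold change of 0.49 ± 0.16 for C1qa, 0.66 ± 0.18 for C1qb and 0.49 ± 0.17 for C1qc (adjusted p = 0.0171, 0.00698 and 0.0285, edgeR's quasi-likelihood test). In that mean effect 50.8% of all genes were called, 25.2% of all genes as higher and 25.7% as lower, and 2 of the 5 effects share the Matrigel controls. The call for C1qb held whichever of the 18 libraries was left out, that for C1qa in 17 and that for C1qc in 9 of the 18. C1qa was lost without Matrigel control replicate 2 (adjusted p = 0.0755).

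Macrophage markers and C1q were both higher in KPCML1, and they did not move together in every model. The 12 macrophage markers summed to 119 to 128 CPM in KPCML1 muscles and 64.1 to 71.7 CPM in KPC muscles, against 34.7 to 63.4 CPM in Matrigel controls. Of the 12, 4 rose in KPCML1 (Mrc1, Cd163, Lyz2 and Cd14) and 0 fell. In KPC Cd163 and Cd14 rose, while Cx3cr1 and Aif1 fell by 3.70 and 2.29 on the log2 scale (adjusted p = 0.0274 and 0.04, edgeR). They summed to 62.9 to 82.1 CPM in C26 muscles against 58.4 to 60.0 CPM in controls, to 104 CPM in both KPP muscles against 55.0 to 90.5 CPM, and to 42.2 to 42.4 CPM in LLC muscles against 35.9 to 46.8 CPM. In KPP Cd68 and Cd14 rose and Cx3cr1 fell by 4.11 on the log2 scale (adjusted p = 0.0126, edgeR), and none of the 12 passed the test in C26 or LLC. Lyz2 weighs most in these sums, with a median of 30.2 CPM over the libraries, where the next highest median was 5.95 CPM, and Cx3cr1 was at 0 in replicate 2 of the KPC and of the KPP tumour libraries. Across the 18 libraries, with log2 CPM centred on the mean of each experiment, the macrophage list had a Pearson r of 0.80 with C1qc, 0.77 with C1qa and 0.63 with C1qb. For r a list was taken as the mean of its genes on this scale, each of equal weight, not as summed CPM. The STAT3 and acute phase list had r of 0.49 with C1qc, 0.52 with C1qa and 0.62 with C1qb. These points share libraries and experiments, and the part of these markers in the C1q values was not tested. In bulk muscle, more cells of a type and more RNA per cell cannot be told apart. The summed level of 10 neutrophil markers was higher in both tumour libraries than in either control in all 5 models. They summed to 17.3 to 32.8 CPM in KPCML1 muscles and 52.4 to 74.1 CPM in KPC muscles, against 1.64 to 2.76 CPM in Matrigel controls. They summed to 6.80 to 8.39 CPM in LLC muscles against 1.16 to 2.59 CPM in controls, to 9.08 to 26.3 CPM in C26 muscles against 1.23 to 1.31 CPM, and to 20.4 to 62.0 CPM in KPP muscles against 1.59 to 2.65 CPM. Erythroid markers summed to 2970 to 6830 CPM in KPCML1 muscles and 2100 to 2300 CPM in KPC muscles, against 358 to 399 CPM in Matrigel controls, and to 864 to 2600 CPM in LLC muscles against 295 to 381 CPM. They summed to 146 to 288 CPM in C26 muscles against 294 to 315 CPM in controls, and to 462 to 3210 CPM in KPP muscles against 424 to 890 CPM. The part of these cells in the complement values was not tested. Flt3, Xcr1, Cd79a and Ms4a1, markers of dendritic and B cells, summed to at most 0.807 CPM in any library.

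**Figure D2:**
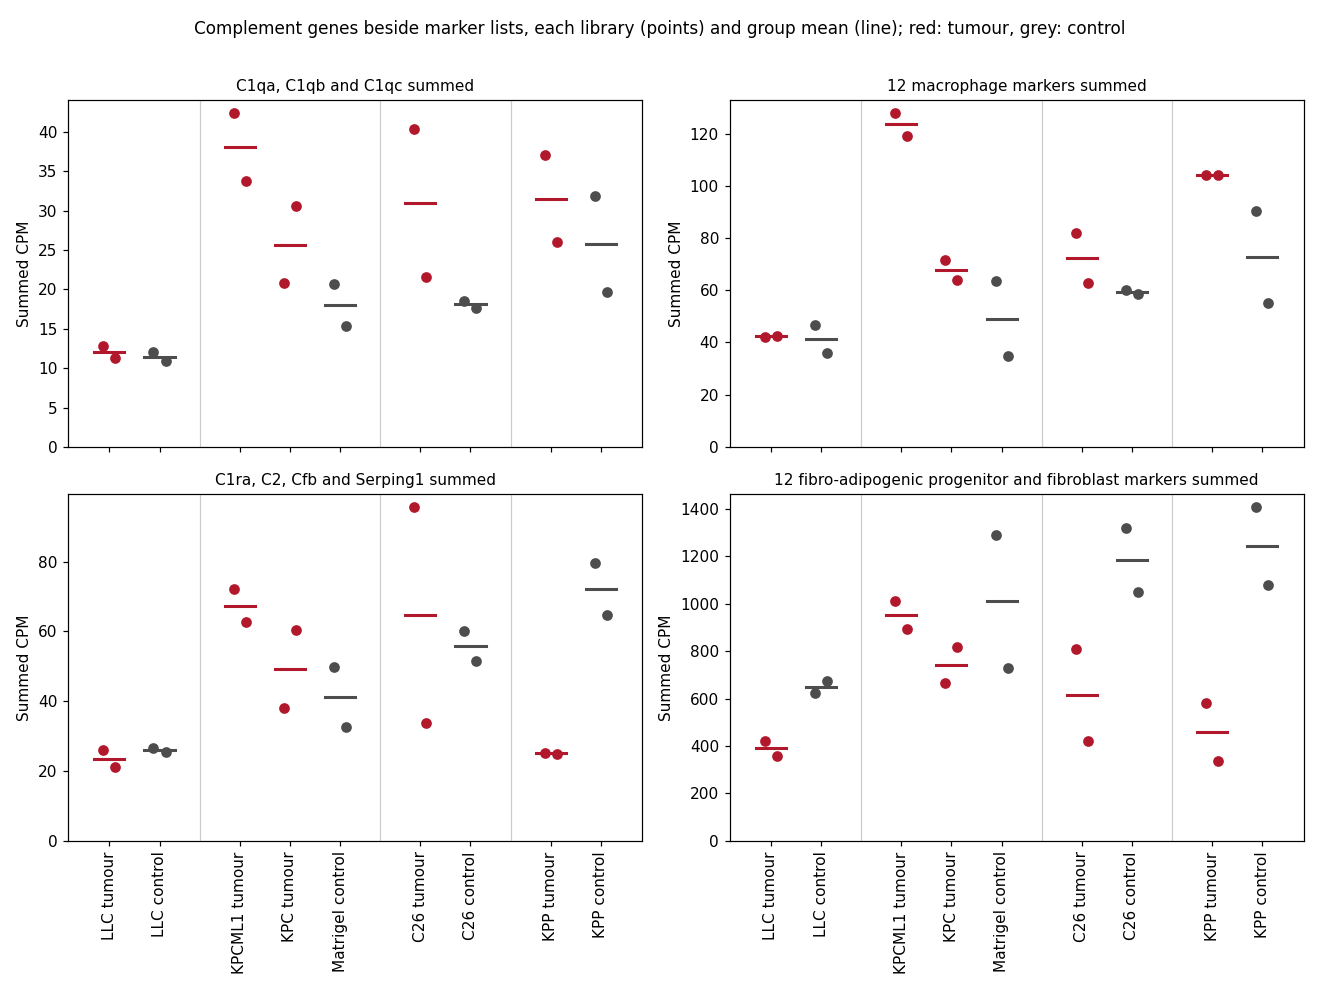
Summed CPM of the C1q chains and of C1ra, C2, Cfb and Serping1 beside the summed macrophage and fibroblast markers, each library as a point and each group mean as a line, tumour in red and control in grey. KPCML1 muscles stand at 33.7 to 42.4 CPM of C1q, against 15.4 to 20.6 CPM in Matrigel controls. KPP muscles stand at 24.9 to 25.1 CPM of the other 4 genes, against 64.7 to 79.7 CPM in KPP controls. These 4 are the members called lower in KPP, so their lower sum there follows from the choice. Serping1 weighs most in it, with 19.3 and 19.4 CPM in KPP muscles and 57.2 and 47.4 CPM in KPP controls.

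C1ra encodes C1r, the protease that activates C1s within the C1 complex. It had 3.34 and 2.33 CPM in KPP muscles, against 12.6 and 10.4 CPM in KPP controls, so that both tumour libraries lay far below both controls. C1ra fell in KPP by 2.03 ± 0.46 on the log2 scale (adjusted p = 0.00424, edgeR's quasi-likelihood test), a level 0.245 times that of the controls, and the call held with each library left out (adjusted p = 0.0109 to 0.0472). Elsewhere C1ra had 12.4 and 10.7 CPM in KPCML1 muscles and 6.55 and 11.5 CPM in KPC muscles, against 9.24 and 6.01 CPM in Matrigel controls. The C26 replicates parted, with 18.6 and 5.13 CPM of C1ra in tumour muscles on either side of 10.8 and 9.14 CPM in controls. In LLC muscles C1ra had 5.29 and 5.69 CPM against 5.23 and 4.77 CPM in controls. The log2 fold changes in these 4 models ran from 0.14 to 0.60 and none passed the test.

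C2 encodes the protease of the classical C3 convertase and was the sparsest member. It had 0.826 and 1.21 CPM in KPP muscles, against 3.71 and 2.50 CPM in KPP controls. C2 fell in KPP by 1.60 ± 0.44 on the log2 scale (adjusted p = 0.0125, edgeR's quasi-likelihood test). The call was lost without KPP control replicate 1 (adjusted p = 0.103), without KPP tumour replicate 1 (adjusted p = 0.0789) and with length-scaled counts (adjusted p = 0.0841). In KPCML1 muscles C2 had 2.63 and 3.07 CPM, against 0.940 and 1.23 CPM in Matrigel controls, a log2 fold change of 1.39 ± 0.44 that missed the threshold (adjusted p = 0.0651, edgeR). In KPC muscles C2 had 1.61 and 1.67 CPM, a log2 fold change of 0.60 ± 0.44 against the same controls that did not pass (adjusted p = 0.33, edgeR). It had 1.07 and 0.743 CPM in LLC muscles against 0.977 and 0.413 CPM in controls, and 1.81 and 0.834 CPM in C26 muscles against 2.09 and 1.47 CPM in controls, where the groups overlapped.

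C4b encodes C4, whose fragment anchors the classical convertase to its target, and it had the largest increase of the 9 genes in each of the 4 transplanted models. It had 6.48 and 5.69 CPM in LLC muscles, against 1.57 and 0.864 CPM in LLC controls. It had 25.7 and 18.2 CPM in KPCML1 muscles and 11.7 and 22.8 CPM in KPC muscles, against 2.92 and 2.52 CPM in Matrigel controls. In C26 muscles C4b had 35.7 and 17.4 CPM, against 7.03 and 10.3 CPM in C26 controls. In all 4 models both tumour libraries exceeded both controls. C4b had 8.96 and 8.18 CPM in KPP muscles, between the 17.3 and 3.80 CPM of the KPP controls.

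C4b rose by a log2 fold change of 2.33 ± 0.62 in LLC (adjusted p = 0.0238), 3.01 ± 0.58 in KPCML1 (adjusted p = 0.00759), 2.66 ± 0.57 in KPC (adjusted p = 0.0043) and 1.61 ± 0.54 in C26 (adjusted p = 0.0456), by edgeR's quasi-likelihood test. These are folds of 5.02, 8.06, 6.33 and 3.06. In KPP the log2 fold change was -0.32 ± 0.53 (adjusted p = 0.668, edgeR), with a 95% interval from -1.46 to 0.82, and it was 1.17 without KPP control replicate 1. The mean over the 5 models was 1.86 ± 0.29 (adjusted p = 1.2e-04, edgeR), and no single library decided that call. The KPC call held with each library left out (adjusted p = 0.00333 to 0.0472), and with length-scaled counts its log2 fold change was 1.78. The LLC call was lost when any 1 of its 4 libraries was left out (adjusted p = 0.0788 to 0.174). So was the C26 call (adjusted p = 0.0586 to 0.287), which was also lost under relative log expression size factors (adjusted p = 0.0566). Its log2 fold change was 0.98 without C26 tumour replicate 1 and 2.05 without C26 tumour replicate 2. The KPCML1 call was lost without Matrigel control replicate 1 or 2 (adjusted p = 0.0552 and 0.0968).

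The controls of the 5 models set the base of these values. C26 controls, of the strain CD2F1, had 7.03 and 10.3 CPM, against 0.864 to 2.92 CPM in the LLC and Matrigel controls of C57BL/6, while the KPP controls of C57BL/6 spanned 3.80 to 17.3 CPM. Set against the mean of the 3 groups of C57BL/6 controls, the log2 difference was 1.41 ± 0.43 (adjusted p = 0.0994, edgeR). Of the 9 members 0 were called in that comparison by edgeR, 1 at an unadjusted p under 0.05 and 1 by DESeq2, both times C4b, where edgeR called 3.95% of all genes (2.3% higher and 1.65% lower in CD2F1). Without KPP control replicate 1 the C4b difference was 1.90 and was called (adjusted p = 0.00323). Strain and experiment cannot be told apart here.

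C4b has a near-identical neighbour, C4a, in which 48.8% of the 31-base words of the main C4b transcript also occur. C4a held 0.903 to 14% of the counts of both genes. The 10 C4a transcripts matched were all of retained-intron or processed types, the leading one 822 bases long, against 5379 for C4b-201. Fragments of a coding C4a RNA may thus have been counted under C4b, and this share cannot part the 2 genes. With the 2 genes summed the log2 fold changes were 2.22 in LLC, 2.91 in KPCML1, 2.57 in KPC and 1.62 in C26, all called. C1ra shares 56.9% of its words with C1rb, a copy that had 0.504 to 1.30 CPM in the 4 CD2F1 libraries and 0 to 0.0682 CPM in the 14 C57BL/6 libraries. With C1rb added, the log2 fold change of C1ra in KPP was -2.02. The gene model Gm20547, which spans C2 and Cfb, holds 59.7% of the words of C2 and 81.5% of those of Cfb, and it had counts in 2 of the 18 libraries. Of the C4b fragments 85.7% were assigned to the coding transcript C4b-201 and 13.7% to one with a retained intron. Across libraries these shares ran from 70.7 to 94.9% and from 4.32 to 28.7%. Salmon divided C2 and Cfb among 8 transcripts each, and the share of the leading transcript ran from 0 to 96.6% of C2 and from 0 to 91.9% of Cfb across libraries.

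C3 encodes the protein on which all pathways of complement converge. It had 51.0 and 47.0 CPM in KPCML1 muscles and 29.6 and 58.2 CPM in KPC muscles, against 41.3 and 11.8 CPM in Matrigel controls. It had 95.6 and 30.3 CPM in C26 muscles, against 30.0 and 19.3 CPM in C26 controls, and 15.8 and 14.5 CPM in LLC muscles, against 14 and 8.45 CPM in LLC controls. The replicates of C3 differed up to several fold within a group, and no increase passed the test, with log2 fold changes of 0.43 in LLC, 0.88 in KPCML1, 0.72 in KPC and 1.35 in C26. Single libraries moved these values widely. With each library left out in turn, C3 ran from 0.10 to 0.84 in LLC, from 0.25 to 2.06 in KPCML1, from 0.09 to 1.90 in KPC and from 0.27 to 1.97 in C26. The lowest values came without LLC control replicate 2, Matrigel control replicate 2 (KPCML1 and KPC) and C26 tumour replicate 1. The highest came without LLC control replicate 1, Matrigel control replicate 1 (KPCML1 and KPC) and C26 tumour replicate 2. Of these, the KPC value without Matrigel control replicate 1 passed (adjusted p = 0.0495, edgeR). In KPP muscles C3 had 14.4 and 13 CPM, below the 43.5 and 28.5 CPM of both KPP controls, a log2 fold change of -1.40 ± 0.56 (adjusted p = 0.064, edgeR). A fit to the 4 KPP libraries alone called it (adjusted p = 0.0139, edgeR), and in the authors' deposited table C3 had a log2 fold change of -1.24 ± 0.35 with an adjusted p of 0.00378.

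Cfb, the protease of the alternative C3 convertase, had 1.61 and 1.97 CPM in KPP muscles, against 6.15 and 4.35 CPM in KPP controls. Cfb fell in KPP by 1.55 ± 0.52 on the log2 scale (adjusted p = 0.0325, edgeR's quasi-likelihood test). The call was lost with length-scaled counts (adjusted p = 0.224) and without KPP control replicate 1, KPP tumour replicate 1 or KPP tumour replicate 2 (adjusted p = 0.169, 0.131 and 0.0962). In C26 muscles Cfb had 7.65 and 1.97 CPM on either side of 3.17 and 2.84 CPM in controls, and it reversed to a log2 fold change of -0.63 without C26 tumour replicate 1. Cfb had 4.50 and 3.85 CPM in KPCML1 muscles and 1.68 and 2.74 CPM in KPC muscles, against 3.11 and 1.84 CPM in Matrigel controls. LLC muscles and their controls overlapped, at 1.75 and 0.892 CPM against 1.74 and 1.13 CPM.

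Serping1 encodes the C1 inhibitor, the serpin that inactivates C1r and C1s. It had 19.3 and 19.4 CPM in KPP muscles, against 57.2 and 47.4 CPM in KPP controls. Serping1 fell in KPP by 1.43 ± 0.35 on the log2 scale (adjusted p = 0.00651, edgeR's quasi-likelihood test), to 0.370 times the control level, and stayed called with each library left out (adjusted p = 0.0149 to 0.0459). It had 52.5 and 45.0 CPM in KPCML1 muscles and 28.1 and 44.5 CPM in KPC muscles, against 36.4 and 23.6 CPM in Matrigel controls. In C26 muscles it had 67.6 and 25.9 CPM around the 44.0 and 38.0 CPM of controls, and in LLC muscles 17.8 and 13.8 CPM below the 18.6 and 19.1 CPM of controls. Outside KPP its log2 fold changes ran from -0.25 to 0.70 and did not pass.

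**Figure D3:**
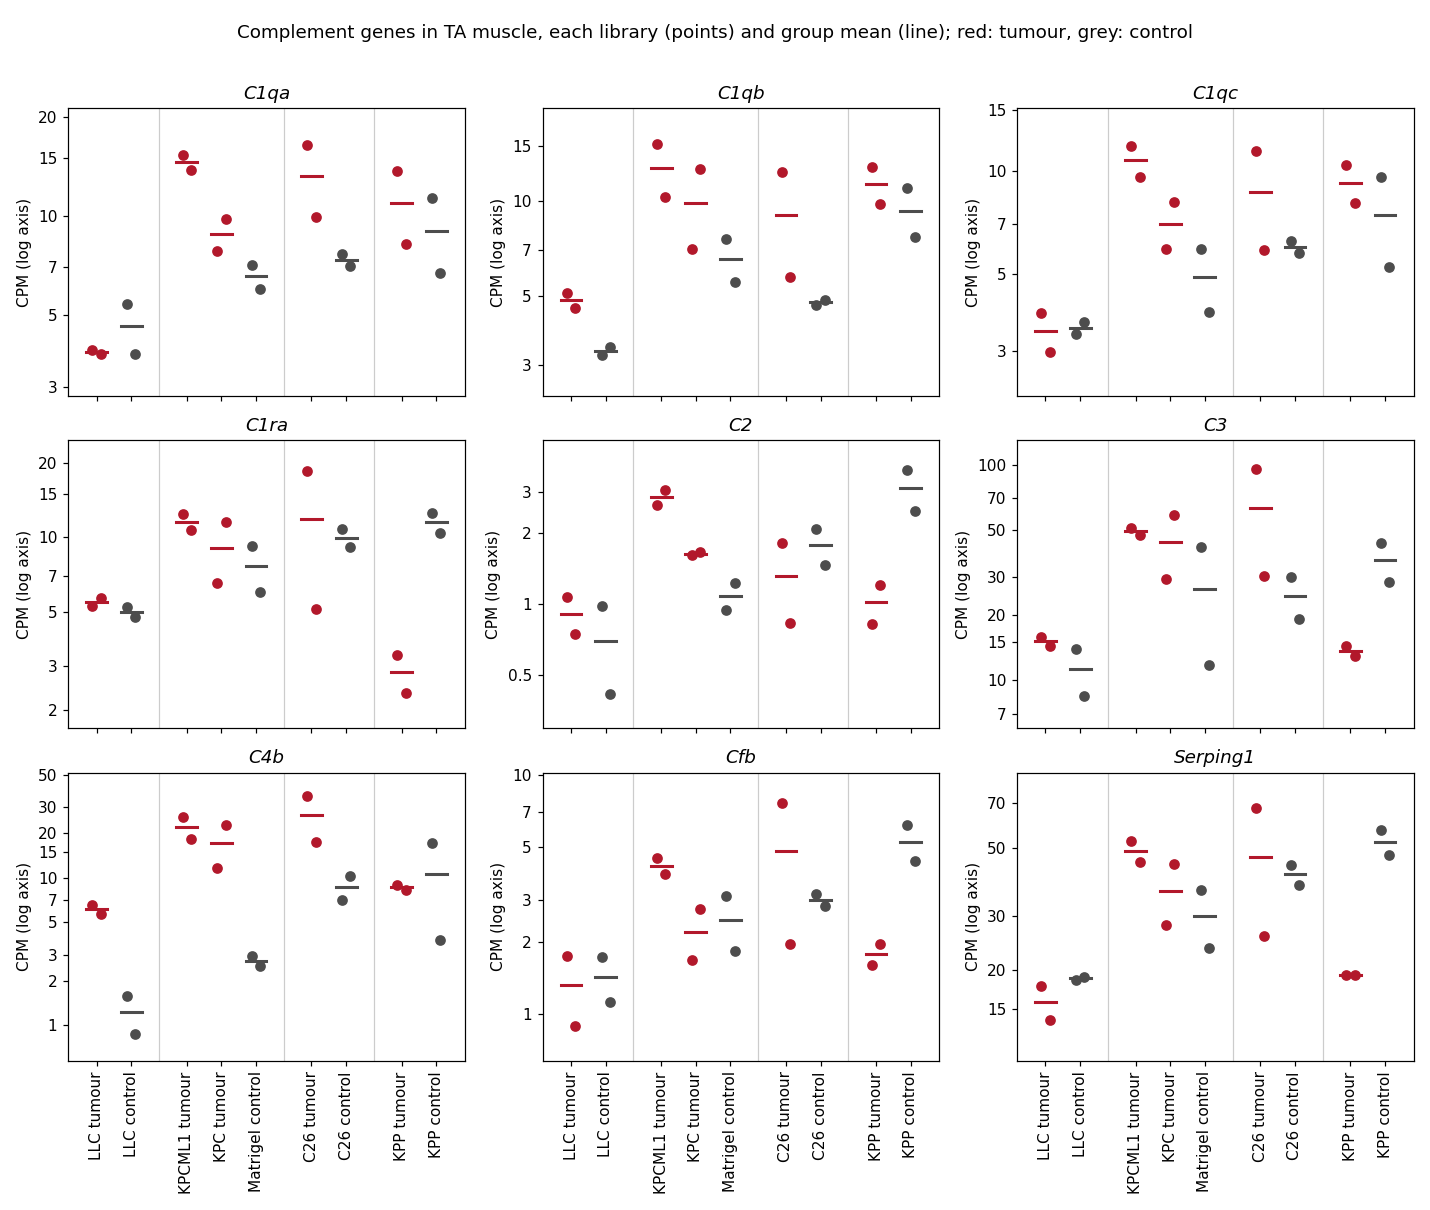
CPM of the 9 complement genes on a log axis, each library as a point and each group mean as a line, tumour in red and control in grey, with 2 libraries a group. C4b stands above its controls in LLC, KPCML1, KPC and C26, and C1ra, C2, C3, Cfb and Serping1 stand below both controls in KPP.

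Fibroblast markers fell in KPP, where C1ra, C2, Cfb and Serping1, the 4 members called lower there, fell too. The 12 markers of fibro-adipogenic progenitors and fibroblasts summed to 337 to 582 CPM in KPP muscles, against 1080 to 1410 CPM in KPP controls, and 9 of the 12 fell. The 6 endothelial markers summed to 90.4 to 102 CPM in KPP muscles against 230 to 235 CPM, and all 6 fell. The interferon list fell in 9 of 12 genes, with sums of 97.1 to 103 CPM in KPP muscles against 134 to 204 CPM in controls. In LLC muscles 5 of the 12 fibroblast markers fell, with sums of 357 to 422 CPM against 625 to 676 CPM, where the log2 fold changes of C1ra and Serping1 were 0.14 and -0.25. In KPC muscles 7 of the 12 fell, among them Col1a1 and Col3a1, with sums of 665 to 816 CPM against 730 to 1290 CPM in Matrigel controls, where the log2 fold changes of C1ra and Serping1 were 0.24 and 0.27. In KPCML1 muscles 3 of the 12 fell and 1 rose (Ly6a), with sums of 893 to 1010 CPM against the same controls, beside log2 fold changes of 0.60 for C1ra and 0.70 for Serping1. In C26 muscles 4 of the 12 fell and 1 rose, with sums of 420 to 808 CPM against 1050 to 1320 CPM, beside log2 fold changes of 0.25 for C1ra and 0.19 for Serping1. The part of these markers in the lower complement RNA of KPP was not tested.

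Members with both tumour libraries beyond both controls were counted in each model. Whether these counts differ between models was not tested, and some members varied together, so they are not separate observations. In KPCML1 all 9 members were higher in both tumour libraries than in either control, where 30.8% of all genes were. Those were 4 of 9 in LLC (31.7% of all genes), 3 of 9 in KPC (31.4%) and 4 of 9 in C26 (34.3%), and in KPP 5 of 9 were lower in both (33.9%). In LLC 1 of 9 was lower in both, Serping1, where 32% of all genes were. None of the 9 was lower in both in KPCML1, KPC or C26 (29.2%, 34% and 31.5% of all genes), and none was higher in both in KPP (30.2%). KPCML1 and KPC share the Matrigel controls, so their counts are not independent.

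Directly compared, KPC muscles differed from KPCML1 muscles in 0 of 9 members by edgeR and in 0 by DESeq2, where 5.99% of all genes were called by edgeR, 2.94% as higher and 3.05% as lower in KPC. At an unadjusted p under 0.05 there was 1, C1qa, with a log2 difference of -0.72 ± 0.31 and a 95% interval from -1.39 to -0.06. For C4b the interval ran from -1.46 to 0.77. The joint test of whether the 5 tumour effects differ called 0 of 9 members by edgeR, where 8.32% of all genes were called, and 7 of 9 had an unadjusted p under 0.05. The smallest adjusted p was 0.0504 for C2, and it was 0.0717 for C1ra and 0.073 for C4b and Serping1. That KPP differs from the other models in these genes was not shown at this threshold. Without a filter on low counts the joint test called 7 of the 9, while its calls over all genes rose from 1339 to 4128. The number of members called also moved when single libraries were left out, and so did the number over all genes.

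Across the 18 libraries, with log2 CPM centred on each experiment, some members varied together in sets that were not sharply parted. C1ra, Serping1 and Cfb had Pearson r of 0.95 (C1ra with Serping1), 0.93 (Cfb with Serping1) and 0.87 (C1ra with Cfb). The C1q chains had r of 0.80 to 0.90 among themselves. C4b had r of 0.83 with C1qb and 0.29 with both C1ra and Serping1. C2 had r of 0.74 with C1ra and 0.75 with both Cfb and Serping1. C3 varied with both sets, with r of 0.78 to 0.79 with C1ra, Cfb and Serping1. With the C1q chains and C4b it had r of 0.59 to 0.69. With the fibroblast list, taken as the mean of its genes on this scale, C1ra had r of 0.68, Serping1 0.67 and Cfb 0.63. C2 had r of 0.43 with that list and C3 had 0.20. With the macrophage list r was 0.33 (C1ra), 0.43 (Serping1), 0.55 (Cfb), 0.39 (C2) and 0.59 (C3). C4b had r of 0.53 with the macrophage list, and with the STAT3 and acute phase list C4b had r of 0.71. These values describe libraries that share experiments and controls.

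Of all tested genes, the most like C1ra was Serping1, followed by Mgll and Rnf144a (r of 0.91 and 0.89). Next to Serping1 stood C1ra, Cfb and C1s1, and next to Cfb stood Col6a5, a collagen chain, Serping1 and C1s1, with r from 0.87 to 0.95. The genes most like C1qa were C1qc, the chemokine Ccl9 and the macrophage scavenger receptor Cd163, and those most like C1qc were C1qa, Cd163 and Pirb (r of 0.83 to 0.90). C1qb was most like March1, C1qc and Kng2. Ucp2, Emb and Slfn4 were most like C4b (r of 0.88 to 0.90), Rbp4, Itgb4 and Dtx1 most like C2 (0.87 to 0.91), and Arhgap45 and Fbln1 stood close to C3 (0.85 and 0.83).

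Among 47 other complement genes reported, 30 were tested. In LLC 0 of the 30 rose and 2 fell, where 7.39% of all genes rose and 6.24% fell. In KPCML1 1 rose and 0 fell (4.15% and 4.38% of all genes), in KPC 2 rose and 2 fell (15.3% and 13.7%), in C26 1 rose and 1 fell (11.5% and 9.8%), and in KPP 3 rose and 9 fell (17.4% and 19.3%). The share that fell in KPP lay above that of all genes, the share that fell in LLC was close to it, and the other shares lay below. In KPP the 6 called of smallest p were named, and Cfd, C7, Cr1l, Cd59a, Vsig4 and Masp1 were added after their values were seen. C1s1, the protease C1r activates, fell in KPP with 12 and 8.72 CPM in tumour muscles against 36.2 and 29.6 CPM in controls, a log2 fold change of -1.67 ± 0.32 (adjusted p = 0.00134, edgeR). Its value in the other models lay between -0.61 and 0.44 and did not pass. C7, a component of the membrane attack complex, had 1.82 and 0.515 CPM in KPP muscles against 8.88 and 6.04 CPM in controls, and fell, a call lost without KPP control replicate 1 or KPP tumour replicate 2 (adjusted p = 0.0581 and 0.0958, edgeR).

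Cfd, the alternative pathway protease adipsin that adipocytes release, changed in both directions. It had 48.9 and 32.2 CPM in KPCML1 muscles and 29.3 and 11.5 CPM in KPC muscles, against 5.16 and 2.59 CPM in Matrigel controls, log2 fold changes of 3.38 ± 0.80 and 2.40 ± 0.77 (adjusted p = 0.0208 and 0.0326, edgeR). In KPP muscles it had 5.33 and 1.21 CPM, against 65.8 and 20.7 CPM in KPP controls, a log2 fold change of -3.76 ± 0.82 (adjusted p = 0.00311, edgeR). The KPCML1 call was lost with each library left out, the KPC call with 3 of 4, and the KPP call with none. Adipocyte markers (5 genes, Cfd not among them) summed to 10.8 to 16.8 CPM in KPCML1 muscles and 6.64 to 12.4 CPM in KPC muscles against 1.47 to 2.14 CPM in Matrigel controls, and to 1.24 to 2.06 CPM in KPP muscles against 13.1 to 24.6 CPM in KPP controls. Their part in the Cfd values was not tested.

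Regulators on the cell surface and in fluid were measured too. Cd59b, a mouse CD59 that blocks the membrane attack complex, had 0.915 and 0.929 CPM in LLC muscles against 3.10 and 2.44 CPM in controls, and 1.33 and 0.634 CPM in C26 muscles against 3.28 and 5.00 CPM in controls. It had 0.289 and 0.151 CPM in KPP muscles against 2.33 and 2.75 CPM in controls, and 0.548 and 0.924 CPM in KPC muscles against 2.72 and 2.73 CPM in Matrigel controls. Cd59b fell in these 4 models, and by 2.11 ± 0.23 on the log2 scale in the mean effect (adjusted p = 6.8e-06, edgeR), which held whichever of the 18 libraries was left out. In KPCML1 its log2 fold change was -1.46 ± 0.47 (adjusted p = 0.0668, edgeR). The LLC call was lost whichever library was left out, the KPC call without KPC tumour replicate 1 (adjusted p = 0.0657), and the C26 call without C26 control replicate 2 or C26 tumour replicate 2 (adjusted p = 0.0687 and 0.0985).

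Cd55, which speeds the decay of convertases, fell in KPP by 1.27 ± 0.20 and in KPC by 0.67 ± 0.19 on the log2 scale (adjusted p = 3.6e-04 and 0.0193, edgeR). The KPP call held with each library left out, and the KPC call was lost with each. Clu, clusterin, had 43.5 and 27.3 CPM in C26 muscles, against 16.1 and 10.9 CPM in C26 controls, and rose by 1.39 ± 0.25 on the log2 scale (adjusted p = 0.00219, edgeR). Cd59a and Cr1l, further inhibitors on membranes, fell in KPP by 0.58 ± 0.20 and 0.64 ± 0.17 (adjusted p = 0.0335 and 0.00983, edgeR), and Cd59a fell in LLC by 0.84 ± 0.20 (adjusted p = 0.0132, edgeR). The Cd59a calls held with 1 of 4 libraries left out in each model, and that in KPP stood in 4 of 12 alternatives. The KPP call was lost with DESeq2 (adjusted p = 0.0516). By edgeR it was lost with relative log expression size factors and the replicate block (adjusted p = 0.0583 and 0.0661). It was also lost without the filter on low counts and in a fit to KPP alone (adjusted p = 0.0857 and 0.174, edgeR). The Cr1l call was lost without KPP tumour replicate 1 (adjusted p = 0.0885). Vtn, vitronectin, fell in KPP by 1.74 ± 0.38 (adjusted p = 0.00291, edgeR).

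**Figure D4:**
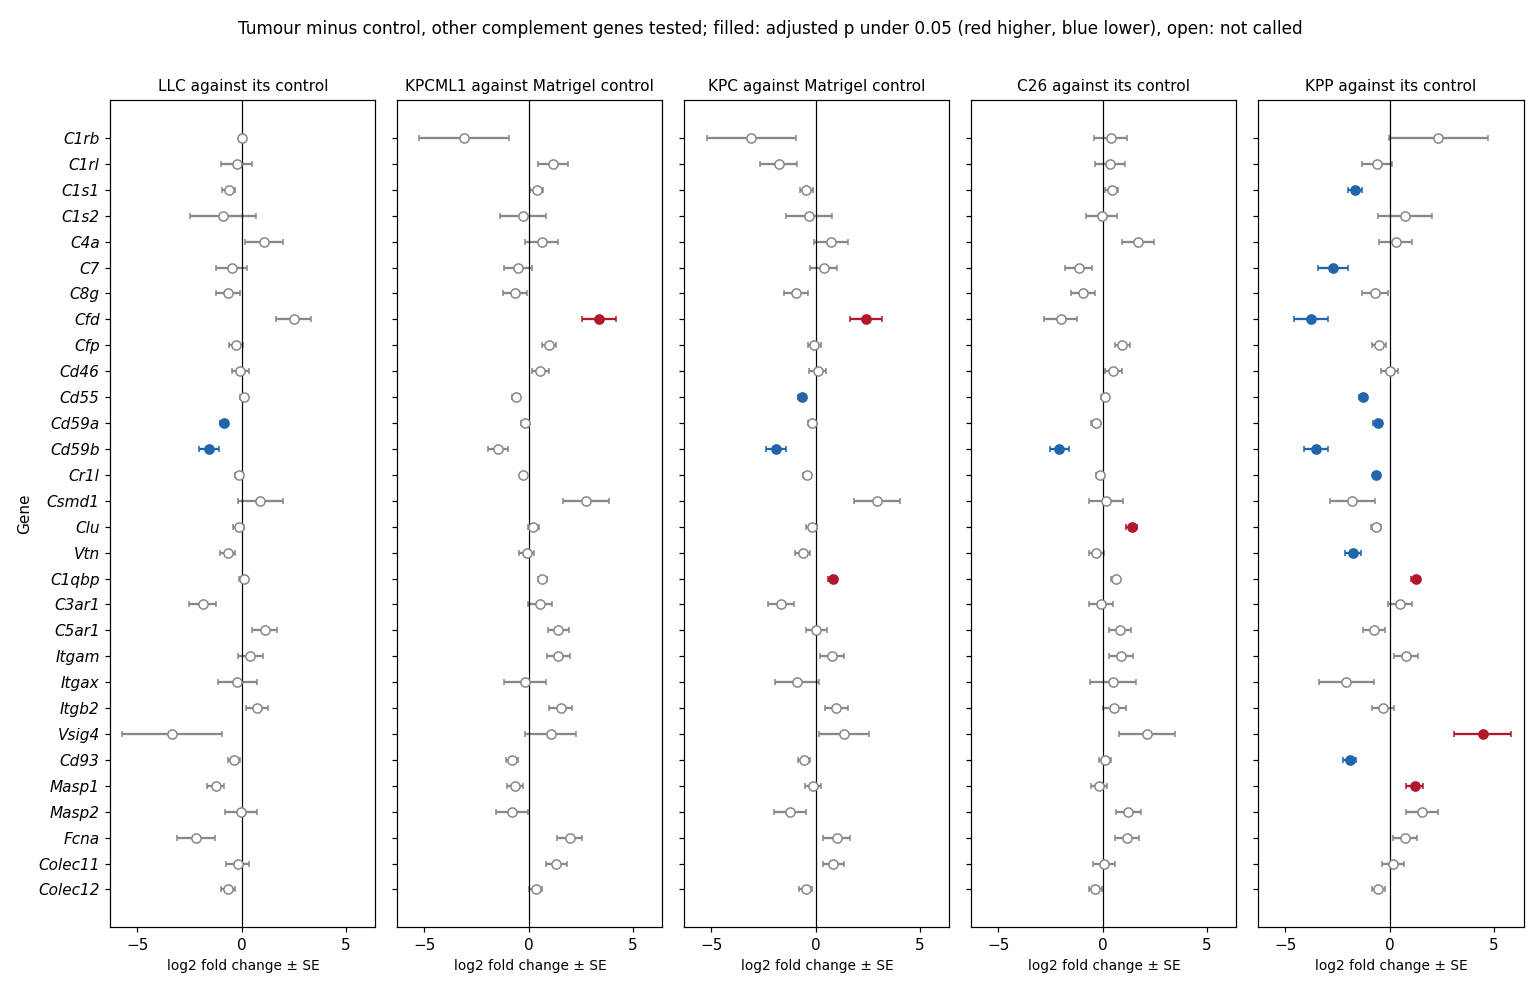
Log2 fold change with standard error of the 30 other complement genes tested, tumour minus control, in the 5 models; filled points passed an adjusted p of 0.05, red higher and blue lower. Cfd stands at 3.38 in KPCML1, 2.40 in KPC and -3.76 in KPP, and Cd59b stands below 0 in all 5 models.

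Genes of receptors and of lectin proteases changed in few models. Cd93, a C1q receptor candidate that endothelial cells carry, had 5.70 and 6.66 CPM in KPP muscles, against 25.5 and 21.4 CPM in KPP controls, and fell by 1.92 ± 0.30 on the log2 scale (adjusted p = 4.2e-04, edgeR) beside the 6 endothelial markers that fell. C1qbp, a mitochondrial protein that also binds C1q, rose in KPP by 1.24 ± 0.22 and in KPC by 0.81 ± 0.22 (adjusted p = 9.3e-04 and 0.0155, edgeR), and the KPC call was lost without Matrigel control replicate 1 or KPC tumour replicate 1 (adjusted p = 0.118 and 0.0543). Vsig4, a C3b receptor of resident macrophages, had 0.702 and 0.394 CPM in KPP muscles, against 0.0354 and 0 CPM in KPP controls, and rose (adjusted p = 0.0232, edgeR), a call that held with 1 of 4 libraries left out. Masp1, a protease of the lectin pathway, had 5.28 and 6.33 CPM in KPP muscles, against 2.48 and 2.55 CPM in KPP controls, and rose by 1.21 ± 0.41 on the log2 scale (adjusted p = 0.0315, edgeR), a call lost whichever library was left out (adjusted p = 0.0529 to 0.136). The anaphylatoxin receptors C3ar1 and C5ar1 passed the test in none of the 5 models.

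In the authors' deposited tables, which they made for LLC, KPC, C26 and KPP with DESeq2, C4b was the 1 member under an adjusted p of 0.05 in LLC, KPC and C26, with log2 fold changes of 2.35 ± 0.49, 1.81 ± 0.42 and 1.51 ± 0.33 (SE). For KPP the authors' deposited table had 4 members under 0.05, C1ra, Serping1, C3 and C2, with log2 fold changes of -1.99, -1.41, -1.24 and -1.76. Cfb had a log2 fold change of -1 ± 0.54 there, with an adjusted p of 0.178 in the authors' deposited table. C4b in KPP stood at 0.28 ± 0.49 in the authors' deposited table, where the estimate from summed counts was -0.32.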

How the data were processed

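Poly(A) RNA of TA muscle was sequenced as read pairs from a directional kit, per the labels' protocols. Per the submitters' processing notes, reads were handled with bcl2fastq (2.20), FastQC, Salmon and DESeq2 on build mm10. For Salmon, version and strand setting are not stated there. The deposited library files hold, for 140825 transcripts, the authors' estimated counts of fragments (not normalised), TPM and effective lengths. The authors' deposited comparison tables hold log2 fold changes, standard errors and p-values, and the one whose cell number matches no sample label was not used here.

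Of the transcripts, 139881 matched GENCODE M21 by identifier and 944 did not (0.416 to 0.693% of fragments). The estimated counts of a gene's transcripts were added and the sums rounded. The filter on low counts was filterByExpr in edgeR (4.0.16), and TMM scaled the libraries. The edgeR quasi-likelihood fit was a single model of 9 groups (9 residual degrees of freedom, common dispersion 0.0539), p-values were adjusted over 16089 genes by Benjamini and Hochberg, and those under 0.05 were called. Log2 CPM for correlations used a prior count of 2. Intervals are 95% intervals of the fit. Replicates are labelled biological, and p-values measure the spread of these libraries. Motif shares cover the 250 bases before each RefSeq start.

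The members, marker lists, other complement genes and tests were chosen with earlier results of these data known. Named were all 9 members, and up to 6 called genes of smallest p among the other complement genes of each comparison, with the 6 further genes called in KPP added after their values were seen. For likeness the 3 genes of highest correlation were named. A gene of the list of other complement genes and a gene alike to C3 are not reported here.

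Tried in place of these settings were DESeq2 (1.42.0), relative log expression scaling, every gene with a count kept, length-scaled counts from TPM and effective length, C4a and C1rb merged with C4b and C1ra, a replicate block, each experiment fitted alone, and leaving out each library. A group left with 1 library took its spread from the rest of the fit. In simulated data for the LLC comparison (16089 genes), 100 genes were changed by 1 and 100 by 2 on the log2 scale. Genes of low mean count were not among them, and the other groups did not differ. Of those changed by 1 edgeR called 27%, of those changed by 2 it called 86%, and it called 4 unchanged genes. Far fewer genes were changed than the 2193 called in LLC, so these shares need not hold for the real comparisons. Software was R 4.3.3 with limma 3.58.1 and Python 3.11.15 with pandas 2.3.3, and figures were drawn in matplotlib 3.10.9.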

Additional observations from a re-analysis of the deposited data

Results flagged for a closer look

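For 5 of the 30 other complement genes tested, the 5 tumour effects differed by the joint test itself (edgeR's quasi-likelihood test, adjusted p over all genes). That test called 8.32% of all genes. Cfd had an adjusted p of 0.00969, with log2 fold changes of 2.50 in LLC, 3.38 in KPCML1, 2.40 in KPC, -2.02 in C26 and -3.76 in KPP, and the difference was called in all 23 alternatives. Clu had 0.021, with 1.39 in C26 and between -0.66 and 0.23 in the other models, and was called in 22 of 23. Cd55 had 0.0264, with -1.27 in KPP, -0.60 in KPCML1, -0.67 in KPC and 0.09 to 0.11 in C26 and LLC, and was called in 16 of 23. C1s1 had 0.0283, with -1.67 in KPP and -0.61 to 0.44 elsewhere, and was called in 13 of 23. Cd93 had 0.0434, with -1.92 in KPP and -0.78 to 0.13 elsewhere, and was called in 5 of 23.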

How the results depend on the processing

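With relative log expression size factors the calls numbered 0 in C26 (1 as reported) of the 9 complement genes. With DESeq2 the calls numbered 4 in KPCML1 (2 as reported) and 1 in CD2F1 against C57BL/6 controls (0 as reported) of the 9 complement genes. Calls over all genes numbered 1739 in KPC against KPCML1 (964 as reported). Without the filter on low counts the calls numbered 7 in KPCML1 (2 as reported), 2 in KPC (1 as reported), 4 in C26 (1 as reported), 7 in the joint test of the 5 models (0 as reported) and 1 in CD2F1 against C57BL/6 controls (0 as reported) of the 9 complement genes. Calls over all genes numbered 2244 in KPCML1 (1373 as reported), 1983 in KPC against KPCML1 (964 as reported), 4128 in the joint test of the 5 models (1339 as reported) and 1318 in CD2F1 against C57BL/6 controls (635 as reported). With length-scaled counts the calls numbered 1 in KPCML1 (2 as reported), 2 in KPP (4 as reported) and 1 in CD2F1 against C57BL/6 controls (0 as reported) of the 9 complement genes. Calls over all genes numbered 612 in KPC against KPCML1 (964 as reported) and 861 in the joint test of the 5 models (1339 as reported). In fits to each experiment alone the calls numbered 3935 in LLC (2193 as reported), 752 in KPCML1 (1373 as reported) and 3432 in KPP (5909 as reported) of all genes. With 1 library left out at a time, complement genes called ran over 0 to 0 in LLC, 0 to 1 in KPCML1, 1 to 2 in KPC, 0 to 1 in C26, 2 to 4 in KPP, 0 to 0 in KPC against KPCML1, 0 to 4 in the joint test of the 5 models, 2 to 5 in the mean effect and 0 to 1 in CD2F1 against C57BL/6 controls. In the same fits, all genes called ran over 502 to 1208 in LLC, 140 to 889 in KPCML1, 2033 to 4633 in KPC, 1093 to 3429 in C26, 3238 to 4970 in KPP, 21 to 2033 in KPC against KPCML1, 457 to 2716 in the joint test of the 5 models, 6787 to 8419 in the mean effect and 286 to 718 in CD2F1 against C57BL/6 controls. No log2 fold change whose sign turned under an alternative had been called. With 1 library left out at a time, values on both sides of 0 were reached by C1qa (-0.50 to 0.02), C1qc (-0.24 to 0.16), C2 (-0.12 to 1.13) and Cfb (-0.68 to 0.30) in LLC, and by C1ra (-0.22 to 0.59), Cfb (-0.56 to 0.25) and Serping1 (-0.10 to 0.62) in KPC. The same held for C1qc (-0.05 to 0.94), C1ra (-0.98 to 0.91), C2 (-1.11 to 0.04), Cfb (-0.63 to 1.36) and Serping1 (-0.69 to 0.73) in C26, for C1qa (-0.15 to 0.71), C1qc (-0.03 to 0.81) and C4b (-0.99 to 1.17) in KPP and for C3 (-0.73 to 0.25) and C4b (-0.91 to 0.06) in KPC against KPCML1. It held too for C2 (-0.04 to 0.22), Cfb (-0.32 to 0.09) and Serping1 (-0.25 to 0.03) in the mean effect and for C3 (-0.19 to 0.55) in CD2F1 against C57BL/6 controls. The sign also turned for C1qc in LLC at 0.00 (no filter on low counts), C4b in KPP at 0.24 (length-scaled counts), C2 in the mean effect at -0.12 (length-scaled counts) and Cfb in the mean effect at 0.00 (length-scaled counts). For these the cause was not tested. With 2 libraries a group, genes of low counts limit the precision.

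Groups of a model share replicate numbers 1 and 2. The deviations of same-numbered libraries had correlations of 0.01 in LLC, 0.09 in KPCML1, -0.05 in KPC, -0.08 in C26 and -0.17 in KPP, with 2 pairs each. With so few pairs, these values cannot show whether same-numbered libraries share more than a number. With that number as a replicate block the calls numbered 0 in C26 (1 as reported) of the 9 complement genes, and over all genes 1329 in LLC (2193 as reported), 690 in KPCML1 (1373 as reported), 241 in KPC against KPCML1 (964 as reported), 285 in the joint test of the 5 models (1339 as reported) and 282 in CD2F1 against C57BL/6 controls (635 as reported). The sign turned for C1ra in C26 at -0.01 under the replicate block, C4b in KPP at 0.03 under the replicate block and C4b in KPP at 0.01 under the crossed replicate block. The crossed block for KPP, chosen after seeing the data, called 4 of 9 genes. DESeq2 was not run for the joint test, and fits to each experiment alone were not run for comparisons across experiments.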

Other observations

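Between the controls of the 2 strains, 4 of the 30 other complement genes were called by edgeR's quasi-likelihood test, where 3.95% of all genes were, and strain and experiment cannot be told apart. C1s2, a near copy of C1s1, had 0.721 and 0.446 CPM in CD2F1 controls, against 0 to 0.130 CPM in the 6 C57BL/6 controls, and C1rb had 0.504 and 1.05 CPM in CD2F1 controls, against 0 to 0.0682 CPM. Masp2, a protease of the lectin pathway, had 0.757 and 0.669 CPM in CD2F1 controls, against 0.0707 to 0.307 CPM in C57BL/6 controls. Clu had 16.1 and 10.9 CPM in CD2F1 controls, against 26.3 to 39.0 CPM in C57BL/6 controls, a log2 difference of -1.29 ± 0.22 (adjusted p = 0.00268, edgeR). The Masp2 call held with 3 of 8 control libraries left out in turn, and those of C1rb, C1s2 and Clu with 7 of 8. Under the replicate block C1rb and Masp2 were not called.

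Lists of signalling genes changed too, not always in the direction of the members. In KPP most of the STAT3 and acute phase genes rose while 4 members fell. The shares of all genes called higher were 7.39% in LLC, 4.15% in KPCML1, 15.3% in KPC, 11.5% in C26 and 17.4% in KPP. Those called lower were 6.24%, 4.38%, 13.7%, 9.8% and 19.3% in the same order. The part of these lists in the complement values was not tested. Of 10 STAT3 and acute phase genes, 3 rose in LLC, 6 in KPCML1, 7 in KPC, 9 in C26 and 8 in KPP, where Hp fell, and their summed level was 801 to 843 CPM in KPP muscles, against 111 to 146 CPM in KPP controls. Of 12 interferon response genes 0 rose in any of the 5 models, while 8 fell in KPC and 9 in KPP. In C26 1 of them fell. Of 12 NF-kB genes 6 rose in LLC, 1 in KPCML1, 4 in KPC, 6 in C26 and 7 in KPP, and 0 fell in any of the 5. Their summed level was 216 to 291 CPM in LLC muscles against 72.9 to 74.3 CPM in controls, 158 to 214 CPM in C26 muscles against 78.3 to 88.6 CPM, and 161 to 172 CPM in KPP muscles against 85.8 to 99.1 CPM. It was 124 to 145 CPM in KPCML1 muscles and 158 to 192 CPM in KPC muscles, against 86.8 to 93.5 CPM in Matrigel controls. Nfkb2 and Relb, the subunits of the alternative NF-kB pathway, had log2 fold changes of 3.86 and 2.95 in LLC (adjusted p = 3.8e-05 and 8.0e-05, edgeR), 2.82 and 1.76 in C26 and 1.57 and 0.85 in KPP, all called, and 0.16 and -0.15 in KPCML1 and 0.15 and -0.17 in KPC, which did not pass.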
